A study of Drosophila melanogaster with 12 samples.

Results

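The serine protease gene CG11313 and the proteases of the extracellular cascades that lead to the Toll receptor and to melanization were followed in fly heads with weak or strong knockdown of the complex I subunit ND-75. CG11313 was chosen because its transcript was higher after strong knockdown. The other genes, namely Sp7, MP1, Hayan, psh, SPE, grass and modSP, were chosen for their known roles, with earlier results of these data known. Of these 8 genes, 7 were found by name among the 17589 features of the deposited tables, and MP1 was not analysed here. Since CG11313 was picked from the same libraries, its values are given as a description with no test, and the other 6 genes were tested.

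RNA was sequenced from heads of 2-day-old flies, with 4 libraries for each of 3 genotypes. Controls carried nSybGal4 over w[1118]. The ND-75KDweak flies carried nSybGal4 with the weak ND-75 RNAi, a long hairpin, and the ND-75KDstrong flies carried it with the strong ND-75 RNAi line HMS00853, a short hairpin. According to the study's text, every genotype also carried Tub-Gal80ts, a temperature-sensitive repressor of Gal4, which the sample labels do not list. In the study's strain list the weak line is in w[1118] and the strong line in a stock with marker alleles of y, sc, v and sev. An effect of this background and an effect of the strong knockdown therefore cannot be told apart here. nSyb-Gal4 is active in neurons, whereas a head also holds fat body, hemocytes, muscle, glia and cuticle-forming cells, and the controls expressed no RNAi hairpin. For a library, 10 male heads were pooled with 10 female heads, 20 in all. Nothing in the labels says that pools of a genotype had different parents, and a p-value here therefore reflects the variation from pool to pool, which may be technical.

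Clip proteases are secreted zymogens of the insect hemolymph, in which a regulatory clip domain precedes a trypsin-like catalytic domain. They activate each other in series after recognition proteins bind microbial cell walls or after microbial proteases act on them directly. One arm ends in cleavage of the cytokine Spätzle, the ligand of Toll, and another in cleavage of prophenoloxidases, the enzymes that start melanin formation. Fat body and hemocytes are known as the main sources of these proteins in the adult fly.

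Libraries held 19309456 to 34169998 counts. The library of control replicate 3 had 12966 features with a count, fewer than the 13729 to 14967 of the others. ND-75 itself, the target, was at 947 ± 303 CPM (counts scaled to a common library size by the trimmed mean of M-values, SD, n = 4) in control, 616 ± 37.6 in ND-75KDweak and 549 ± 78.6 in ND-75KDstrong. All libraries of both knockdowns were below all controls for ND-75, whose lowest control library was at 709 CPM. Summed levels of 5 neuronal markers were lowest in control replicate 3 (1182 CPM) and ND-75KDstrong replicate 4 (1170 CPM), against 1650.5 to 2278 CPM in the other 10 libraries. No defining marker of neurons, glia, photoreceptors, muscle, fat body or hemocytes was at 0 in any library.

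CG11313 (FBgn0039798) went from near 0 in control and ND-75KDweak heads to at least 38.7 CPM in every ND-75KDstrong library. The gene is on chromosome 3R from 30729837 to 30731165 on the minus strand, with 2 annotated transcripts of 3 exons each, and no annotated gene overlaps it. The deposited annotation gives its product a clip domain and a trypsin domain and lists Sp7 as the closest Swiss-Prot entry. Control libraries 1 to 4 held 3, 3, 0 and 0 counts of CG11313. The ND-75KDweak libraries held 3, 2, 4 and 1 counts. The ND-75KDstrong libraries held 1624, 917, 1427 and 2478 counts, which corresponded to 47.8, 39.4, 38.7 and 97.9 CPM. The lowest ND-75KDstrong library was thus far above the highest library of the other genotypes (0.146 CPM).

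A level of 3 counts, taken as the limit that a count of 0 allows, corresponded to 0.0814 to 0.154 CPM. The levels of CG11313 in control (0.0668 ± 0.0777 CPM, SD, n = 4) and ND-75KDweak (0.0997 ± 0.0456 CPM) were near this limit, and no fold change between these genotypes is given. Summed over libraries, the depth-scaled level in ND-75KDstrong was 922 times that of control, with a 95% interval of 423 to 2513. Against ND-75KDweak it was 551 times as high, with a 95% interval of 300 to 1151. The lower sums were 6 and 10 counts. These intervals cover counting error only and leave out the variation between libraries. They also make no allowance for the choice of CG11313 by this same rise, and are no test of it. Within ND-75KDstrong, replicate 4 was 2.05 times as high as the next library, and replicates 1 to 3 lay between 38.7 and 47.8 CPM. Replicate 4 also had the highest summed level of 11 fat body markers in its genotype (71582 CPM, against 28648 to 39105 in the other 3 libraries). Most of that sum came from Yp1, Yp2 and Yp3 (11128, 19339 and 33268 CPM). Lsp1beta, apolpp, Obp99b and fit were also highest there. Fbp1 (8.46 CPM, against 21.8 to 49.4) and Lsp1gamma (2.45 CPM, against 4.27 to 9.40) were lowest there. The part of the tissue makeup in the level of CG11313 was not tested. In RNA from whole heads, fewer cells of a type and less RNA per cell cannot be told apart.

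**Figure D1:**
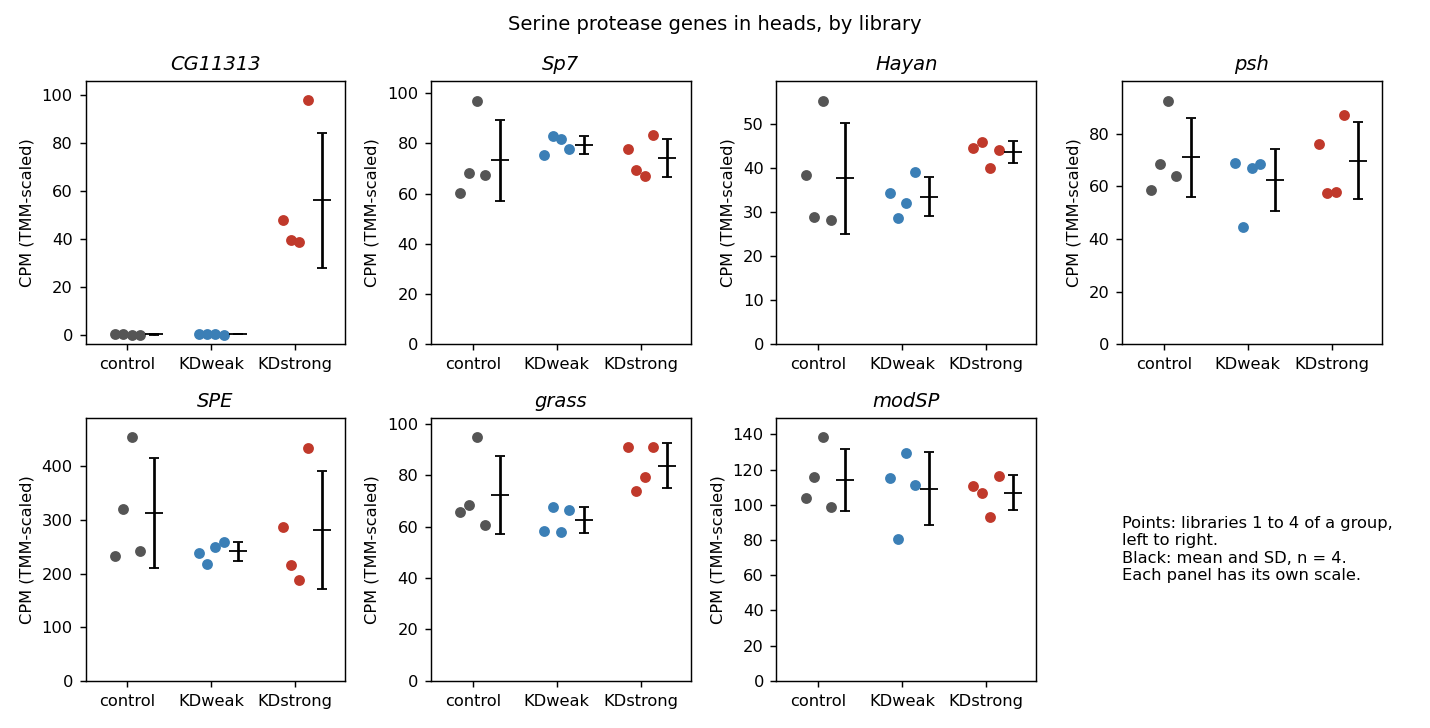
Level of the 7 serine protease genes in CPM (vertical axes, a separate scale for each gene) in each of the 4 libraries of control, ND-75KDweak and ND-75KDstrong heads, with the mean and SD of each genotype in black. CG11313 is near 0 in 8 libraries and between 38.7 and 97.9 CPM in the 4 ND-75KDstrong libraries, whereas the other genes are expressed in every library.

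Few features of these tables went from under 1 CPM to above 5 CPM in ND-75KDstrong. Only 2 of 17589 features were under 1 CPM in all 8 control and ND-75KDweak libraries and above 5 CPM in all 4 ND-75KDstrong libraries. Smaller steps are left out of this pattern, which was defined after the values of CG11313 were known. CG11313 was thus 1 of the 2 by choice of the pattern. The other was FBti0063565, a transposable element insertion on chromosome X from 114047 to 116407, at 30.9 to 66.4 CPM in ND-75KDstrong and at most 0.396 CPM in the other libraries. Of 220 genes annotated with a trypsin domain, 130 were under 1 CPM in every control and ND-75KDweak library, and CG11313 was the single one of them with this pattern. The next highest of these silent protease genes in any ND-75KDstrong library was CG31954 at 2.29 CPM, followed by CG30289 at 2.02 CPM and CG18557 at 1.24 CPM. At these low levels edgeR called CG30289 higher in ND-75KDstrong than in control (log2 2.19, adjusted p = 0.0189) and than in ND-75KDweak (1.95, adjusted p = 0.0170). It called CG18557 higher in ND-75KDstrong than in ND-75KDweak (3.62, adjusted p = 0.00286). Another 2 genes of the tables have Sp7 as their closest entry besides CG11313 and Sp7 itself, CG9733 at 39.4 ± 11.1 CPM in ND-75KDstrong and CR15280, which was at 0.0514 CPM there.

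The genes around CG11313 did not share its pattern. Of the 4 nearest genes on each side in the tables, 6 were at or below 0.244 CPM in every library of all genotypes. Among them was eIF4H2, predicted to encode a translation initiation factor, 1785 bases away, with 0 counts in all 4 ND-75KDstrong libraries. The remaining 2 were Npc2g and Npc2h, secreted proteins of the Niemann-Pick type C-2 family of sterol-binding proteins. Npc2g, 13440 bases away, was at 256 ± 37.8 CPM in control, 344 ± 18.8 in ND-75KDweak and 238 ± 120 in ND-75KDstrong. Npc2h, 14314 bases away, was at 134 ± 28.4, 187 ± 24.6 and 123 ± 43.3 CPM. Neither passed the edgeR quasi-likelihood test at a Benjamini-Hochberg adjusted p of 0.05 in any of the 3 comparisons. The tables held 0 transposable element insertions within 20000 bases of CG11313. They list only annotated features with a count, so an insertion particular to a stock or without reads would not appear.

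**Figure D2:**
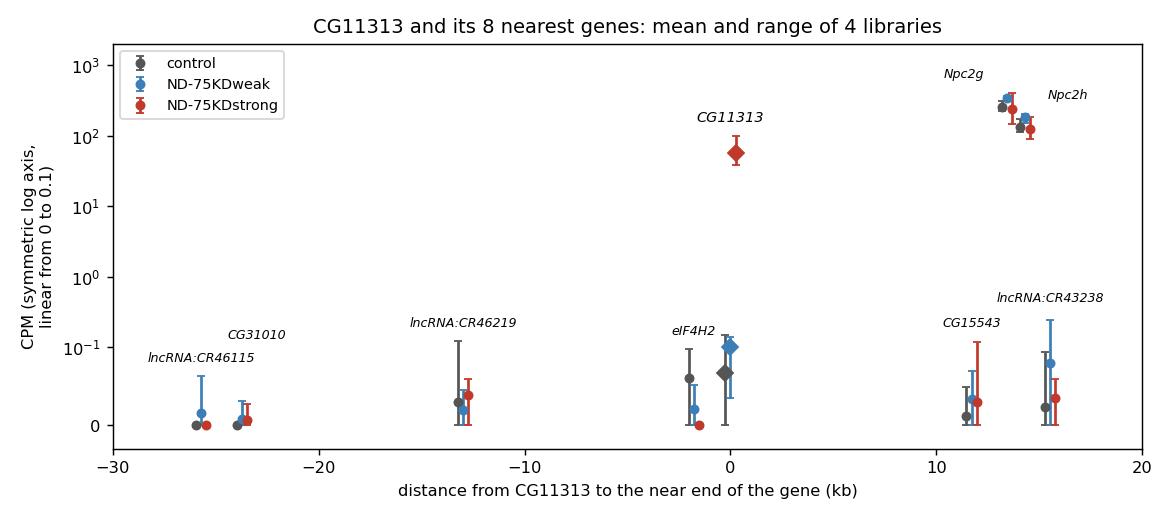
Level in CPM (vertical axis, symmetric log scale) of CG11313 (diamonds) and of its 4 nearest genes on each side (circles) against their distance from CG11313 in kilobases, with the range of 4 libraries; genotypes are set apart sideways for legibility. CG11313 in ND-75KDstrong stands between neighbours near 0, and the 2 expressed neighbours, Npc2g and Npc2h, lie more than 13 kb away.

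Per gene length, CG11313 moved from the last place into the middle of the group. FPKM (counts scaled by gene length and library size, as the authors deposited them) were used here because levels of different genes can be compared only per length. SPE, the enzyme that cleaves Spätzle, stood above all other members in every genotype, with 242 ± 76.6 FPKM in control, 192 ± 11.3 in ND-75KDweak and 217 ± 79.4 in ND-75KDstrong. In control it was followed by grass (51.1 ± 10.3), modSP (49.0 ± 7.10), psh (42.4 ± 8.46) and Sp7 (30.3 ± 6.39), and each of these overlapped its neighbour in the order. Hayan (15.4 ± 5.03 FPKM) lay below Sp7 without overlap, and CG11313 (0.0541 ± 0.0630) was last. CG11313 ranked 7 of 7 in all 8 control and ND-75KDweak libraries.

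In ND-75KDstrong, CG11313 had 38.7, 32.6, 31.3 and 76.2 FPKM. Its mean of 44.7 ± 21.3 FPKM placed it 4 of 7, between modSP (45.9 ± 3.85) and psh (41.6 ± 7.80), and its range overlapped both. By library it ranked 5, 5, 5 and 2. Grass (59.2 ± 5.08 FPKM) and modSP were neighbours that did not overlap in ND-75KDstrong, although they did in control and in ND-75KDweak, where modSP (47.9 ± 8.35) was slightly above grass (45.3 ± 4.26).

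**Figure D3:**
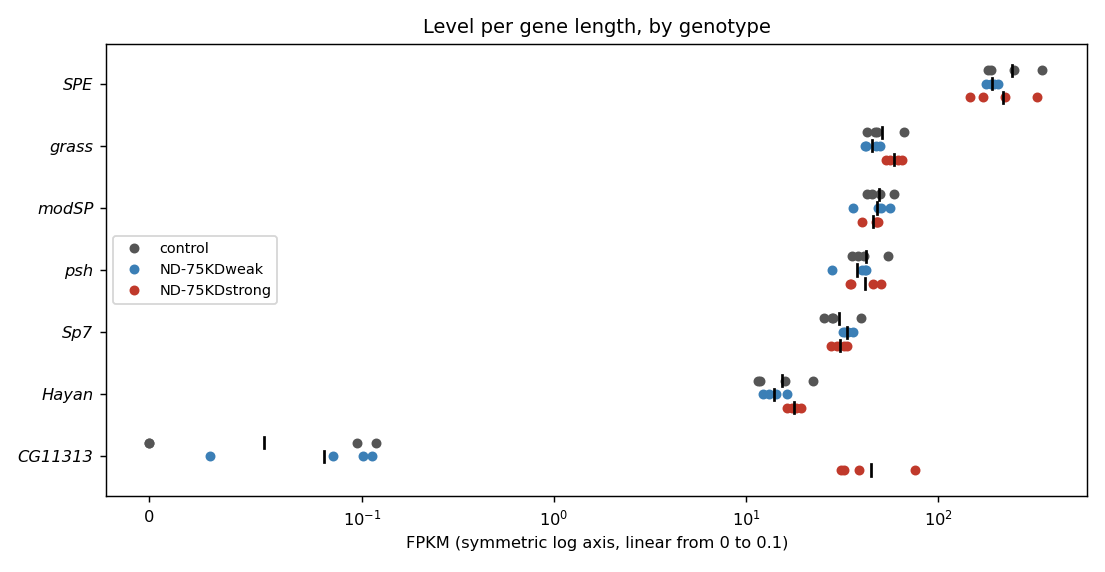
Level of the 7 genes in FPKM (horizontal axis, symmetric log scale, linear from 0 to 0.1) in each library, coloured by genotype, with the mean as a black tick and the genes ordered by their control mean. SPE is highest in each genotype, and CG11313 shifts from under 0.12 FPKM to between 31.3 and 76.2 FPKM in ND-75KDstrong.

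Of the 6 tested proteases, 0 passed the test between ND-75KDweak and control, where 6.54% of 10415 tested features did, and 0 between ND-75KDstrong and control, where 2.37% of 10522 did. By direction, 2.56% of features were higher and 3.98% lower in ND-75KDweak, and 1.78% higher and 0.589% lower in ND-75KDstrong. The number of proteases with an unadjusted p under 0.05 was 0 in both comparisons, and DESeq2 called 0 in both. Between ND-75KDstrong and ND-75KDweak 1 of the 6, grass, was higher, beside 8.18% of 10638 features called higher and 3.09% lower (11.3% in all), and 2 of the 6 had an unadjusted p under 0.05. The median log2 fold change of the 6 genes was -0.15, -0.01 and 0.18 in these comparisons, against -0.01, -0.01 and 0.02 over all tested features. Between the knockdowns the log2 fold changes of the genes other than grass and Hayan were -0.04 for modSP, 0.15 for psh, 0.20 for SPE and -0.11 for Sp7, with adjusted p from 0.569 to 0.900 by edgeR. The comparisons share libraries and are not independent of each other.

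At the top of the Toll branch started by recognition proteins, modSP (chromosome 3R from 16652446 to 16655662) encodes an apical modular protease with low-density lipoprotein receptor class A repeats. It was at 104, 116, 138 and 98.7 CPM in control libraries 1 to 4. The ND-75KDweak libraries were at 115, 80.4, 129 and 111 CPM, and the ND-75KDstrong libraries at 111, 107, 93.2 and 117 CPM. The 3 genotypes overlapped. The log2 fold changes were -0.04 (95% interval -0.41 to 0.33) in ND-75KDweak and -0.10 (-0.44 to 0.23) in ND-75KDstrong against control, with adjusted p = 0.904 and 0.885 by edgeR.

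Grass (chromosome 3R from 27157948 to 27159781) acts below ModSP. Control libraries 1 to 4 were at 65.8, 68.3, 94.8 and 60.6 CPM of grass. In ND-75KDweak it was at 58.2, 67.5, 58.1 and 66.4 CPM, and in ND-75KDstrong at 91.1, 73.9, 79.3 and 90.8 CPM. All ND-75KDstrong libraries were thus above all ND-75KDweak libraries, as for 11.6% of all tested features, and control overlapped both. Grass was 1.33-fold higher in ND-75KDstrong than in ND-75KDweak (log2 0.41, SE 0.11, 95% interval 0.17 to 0.65, adjusted p = 0.0337, edgeR). Against control, the log2 difference was -0.19 (95% interval -0.53 to 0.16, adjusted p = 0.542) in ND-75KDweak and 0.20 (-0.16 to 0.57, adjusted p = 0.743) in ND-75KDstrong. The call between the knockdowns was lost in 5 of the 8 fits that left out 1 library: without ND-75KDstrong replicate 1 (adjusted p = 0.134) or 3 (0.0622), and without ND-75KDweak replicate 1 (0.118), 3 (0.118) or 4 (0.0735). It was also lost when all 12 libraries were fitted together (adjusted p = 0.121, edgeR).

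Summed hemocyte markers separated the same 2 genotypes in the opposite direction. The 7 markers summed to 323 to 396 CPM in ND-75KDstrong and to 486 to 599 CPM in ND-75KDweak, and 3 of 7 fell, namely Hml, Pxn and Sr-CI. The fat body markers, at 28648 to 71582 CPM in ND-75KDstrong and 49925 to 71990 CPM in ND-75KDweak, overlapped. Of these 11 genes 2 were higher and 2 lower between the knockdowns. Muscle markers moved in the direction of grass, with wupA and Mlc2 of 5 called higher in ND-75KDstrong than in ND-75KDweak, all 5 above 0 and a median log2 fold change of 0.44. Their summed levels, 6331 to 9292 CPM and 4489 to 7593 CPM, overlapped. Over all tested features, edgeR called 8.18% higher and 3.09% lower between the knockdowns. The part of these markers in the difference of grass was not tested.

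Persephone, encoded by psh (chromosome X from 18484487 to 18486921), is cleaved by microbial proteases and starts a second branch towards Spätzle. It was at 58.7, 68.5, 92.6 and 64.0 CPM in control. The ND-75KDweak libraries were at 68.9, 44.6, 66.8 and 68.5 CPM, and the ND-75KDstrong libraries at 76.2, 57.4, 57.9 and 87.3 CPM. The genotypes overlapped, and replicate 2 was the low library of ND-75KDweak. Its log2 fold changes were -0.17 (95% interval -0.57 to 0.24, adjusted p = 0.641) and -0.04 (-0.45 to 0.38, adjusted p = 0.980) against control by edgeR.

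Hayan (chromosome X from 18479983 to 18483772) is the neighbour of psh on the same strand and is known for its part in melanization and in Toll signalling. Its levels were 38.4, 29.0, 55.4 and 28.1 CPM in control. Those in ND-75KDweak were 34.3, 28.7, 32.2 and 39.1 CPM, and those in ND-75KDstrong 44.6, 46.0, 40.1 and 44.2 CPM. Hayan in ND-75KDstrong lay above every ND-75KDweak library, as did 11.6% of all tested features. The difference did not pass the test (log2 0.37, SE 0.11, 95% interval 0.12 to 0.62, adjusted p = 0.0604, edgeR), and leaving out ND-75KDweak replicate 4 gave an adjusted p of 0.0470. Against control, the log2 difference was -0.14 (95% interval -0.61 to 0.32, adjusted p = 0.737) in ND-75KDweak and 0.21 (-0.26 to 0.67, adjusted p = 0.817) in ND-75KDstrong by edgeR. An annotated antisense RNA on the opposite strand shares 1061 bases with Hayan, and without a strand-marking library its reads cannot be told apart from those of Hayan.

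The branches meet at SPE (chromosome 3R from 23686255 to 23688147). It was at 232, 320, 454 and 243 CPM in control. Libraries of ND-75KDweak were close together at 238, 219, 249 and 259 CPM, and the ND-75KDstrong libraries were spread over 286, 216, 187 and 434 CPM. SPE had the widest range of the 6 tested genes within ND-75KDstrong, where the highest library was 2.32 times the lowest, and all genotypes overlapped. The log2 fold changes were -0.35 (95% interval -0.80 to 0.10, adjusted p = 0.362) in ND-75KDweak and -0.16 (-0.80 to 0.47, adjusted p = 0.914) in ND-75KDstrong against control by edgeR. The start of SPE shares 283 bases with CG18754 on the same strand, but CG18754 did not exceed 1.39 CPM in any library.

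On the melanization arm, Sp7 (chromosome 3R from 7759786 to 7763947) is known to act above prophenoloxidase 1. It was at 60.4, 68.1, 97.1 and 67.3 CPM in control. Sp7 was at 75.2, 82.9, 81.6 and 77.6 CPM in ND-75KDweak and at 77.6, 69.6, 66.8 and 83.3 CPM in ND-75KDstrong. The genotypes overlapped, and the log2 fold changes were 0.14 (95% interval -0.20 to 0.48, adjusted p = 0.645) and 0.01 (-0.36 to 0.38, adjusted p = 0.992) against control by edgeR. The 95% intervals of the fold of Sp7, the closest entry to CG11313, reached up to 1.40 in ND-75KDweak and 1.30 in ND-75KDstrong.

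**Figure D4:**
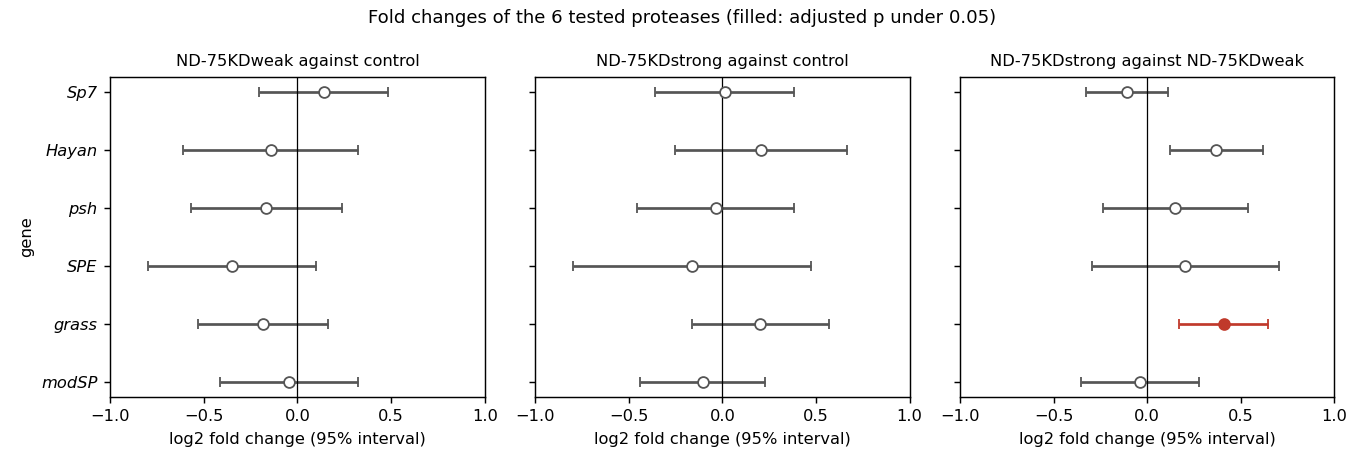
Log2 fold changes (horizontal axes) with 95% intervals of the 6 tested proteases in the 3 comparisons, from edgeR fits of 4 against 4 libraries. The interval holds 0 in all cases except grass and Hayan between ND-75KDstrong and ND-75KDweak, and only grass (filled) had an adjusted p under 0.05.

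Control replicate 3 was the highest control library for all 6 tested proteases. In ND-75KDstrong, replicate 4 was highest for 4 of the 6, and for CG11313. In ND-75KDweak the highest library varied, and replicates 1 to 4 were highest for 1, 2, 1 and 2 of the 6. Replicate 2 was lowest for Hayan, psh, SPE and modSP and highest for Sp7 and grass. It also stood apart in summed fat body markers (49925 CPM, against 68338 to 71990 in the other libraries of its genotype). Its summed muscle markers were at 7593 CPM, against 4489 to 5000. Control replicate 3 and ND-75KDstrong replicate 4 had the low sums of neuronal markers given above. The part of these libraries in the fold changes was not tested beyond leaving them out. Without control replicate 3, the log2 difference from control in ND-75KDstrong was 0.37 for grass and 0.46 for Hayan, and neither passed the test. Across the 12 libraries, Pearson's r of log2 CPM was 0.85 between psh and SPE, 0.84 between psh and modSP and 0.78 between Hayan and grass, while r with CG11313 did not exceed 0.59 (grass). These correlations are descriptions over libraries that share their genotypes and depth.

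Among 9839 tested protein-coding genes, those whose levels over the 12 libraries were most like CG11313 (Pearson's r of log2 CPM) were Proc (0.991), MFS3 (0.987), CG12522 (0.986), Qtzl (0.978) and CG14545 (0.977). Because CG11313 separates 8 libraries near 0 from 4 high ones, these values rest on that step. Proc, which encodes the neuropeptide proctolin, was at 47.9 ± 4.13 CPM in control, 51.8 ± 2.33 in ND-75KDweak and 126 ± 5.58 in ND-75KDstrong. MFS3, a sugar transporter gene, was at 4.37 ± 0.57, 4.11 ± 1.02 and 110 ± 6.84 CPM. CG12522 and CG14545 did not exceed 1.68 and 0.942 CPM in any library. The genes most like SPE were Sod1 (0.986) and Mdh1 (0.979), which encode cytosolic superoxide dismutase and malate dehydrogenase. The closest to modSP were BEAF-32 (0.967) and Cyp6u1 (0.960), to psh CG17202 (0.964) and CG7601 (0.956), to Sp7 Nlp (0.949) and EloB (0.920), to Hayan Edg91 (0.942) and CG6429 (0.934), and to grass RhoL (0.939) and dgt2 (0.934).

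Other genes of the cascades were read by role. Of 4 recognition genes, PGRP-SD, a secreted peptidoglycan-recognition protein, was the one that changed. It was at 50.8, 62.1, 123 and 55.7 CPM in control. The ND-75KDweak libraries were at 12.3, 17.1, 11.8 and 14.0 CPM, below every other library, and the ND-75KDstrong libraries at 80.3, 68.2, 64.5 and 115 CPM. PGRP-SD fell by 2.38 on the log2 scale in ND-75KDweak against control (SE 0.28) and was 2.56 higher (SE 0.20) in ND-75KDstrong than in ND-75KDweak, both past the edgeR test. Both calls held with each library left out in turn. PGRP-SA, GNBP1 and GNBP3 passed in no comparison by edgeR, while DESeq2 also called GNBP1 higher in ND-75KDweak.

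Of 14 other clip proteases and clip-like genes, 10 or 11 could be tested in a comparison. None passed against control in either knockdown by edgeR or DESeq2, beside 6.54% and 2.37% of all features by edgeR. An unadjusted p under 0.05 was found by edgeR for 1 in ND-75KDweak and 0 in ND-75KDstrong. Between the knockdowns, spirit, which acts above SPE, was 0.80 higher on the log2 scale in ND-75KDstrong (SE 0.19, adjusted p = 0.0246, edgeR), with ND-75KDweak at 15.7 to 18.7 CPM and ND-75KDstrong at 22.9 to 44.3 CPM. CG5909 was 0.65 higher (SE 0.14, adjusted p = 0.0134, edgeR), with ND-75KDweak at 21.5 to 29.9 CPM and ND-75KDstrong at 37.3 to 50.4 CPM. In both, the groups did not overlap, as in 11.6% of all tested features in this direction. The call of spirit was lost in 5 of the 8 fits that left out 1 library, namely each ND-75KDweak library or ND-75KDstrong replicate 1 (adjusted p up to 0.0786, edgeR), and that of CG5909 without ND-75KDstrong replicate 1 (0.0518). Between the knockdowns DESeq2 called 4 genes higher, CG9733 and CG9737 besides these. CG9733 overlapped (7.67 to 34.5 CPM in ND-75KDweak, 30.3 to 55.4 CPM in ND-75KDstrong) and did not pass there by edgeR (adjusted p = 0.115). CG9737 had too few counts for the edgeR test there, with at most 0.256 CPM in ND-75KDweak and 0.687 CPM in ND-75KDstrong. Further edgeR fits left out the 2 libraries that stood apart, from control replicate 3, ND-75KDweak replicate 2 and ND-75KDstrong replicate 4. These fits called 5 higher between the knockdowns, 1 lower in ND-75KDweak than in control and 2 higher in ND-75KDstrong than in control. Easter (ea) and snake (snk), the clip proteases of embryonic patterning, were at 24.3 CPM and 0.0276 CPM in control. Among all 213 trypsin-domain genes besides the members, 11 of 96 tested (11.5%) were higher and 3 lower between the knockdowns, beside 8.18% and 3.09% of all features. Against control, 2 of 91 were higher and 1 lower in ND-75KDstrong, beside 1.78% and 0.589% of all features. In ND-75KDweak, 4 of 88 were higher and 5 lower, beside 2.56% and 3.98%.

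The 5 serpins, inhibitors of such proteases, and the 8 genes from Spätzle to the NF-kB factors Dorsal and Dif gave 0 calls in all 3 comparisons by edgeR and by DESeq2. Over all features, edgeR called 6.54% in ND-75KDweak against control, 2.37% in ND-75KDstrong against control and 11.3% between the knockdowns. At these shares, lists this short may hold no call. For the serpins 0 had an unadjusted p under 0.05 in any comparison, and for the other genes 2 did in ND-75KDstrong against control and 0 elsewhere. Levels of the ligand gene spz were 35.9, 43.6 and 38.2 CPM on average in control, ND-75KDweak and ND-75KDstrong. Necrotic (nec), an inhibitor of the psh branch, was at 368, 416 and 376 CPM.

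Toll activity itself was not measured. Of 13 genes listed as effectors of Toll, 7 were higher in ND-75KDstrong than in ND-75KDweak, 2 fell in ND-75KDweak against control and 0 passed in ND-75KDstrong against control. Over all features, 8.18% were higher in the first of these comparisons and 3.98% lower in the second. In the last comparison 2 had an unadjusted p under 0.05, DESeq2 called 0, and without control replicate 3 and ND-75KDstrong replicate 4 edgeR called 3 higher. With DESeq2, 6 effectors fell in ND-75KDweak against control. Drosomycin (Drs), an antifungal peptide, was at 80.8, 64.2, 238 and 89.1 CPM in control, at 12.1, 54.9, 11.1 and 29.0 CPM in ND-75KDweak and at 195, 120, 235 and 338 CPM in ND-75KDstrong. The ND-75KDweak libraries were below all others, and control overlapped ND-75KDstrong. Drs fell by 2.11 on the log2 scale in ND-75KDweak (SE 0.55, adjusted p = 0.0461, edgeR), a call lost in all fits with 1 library left out except that without ND-75KDweak replicate 2 (adjusted p 0.0111 to 0.120). Between the knockdowns, the called effectors with the smallest p included Mtk (Metchnikowin, 3.20 higher), BomS1 (2.13 higher) and BaraA1 (listed as CG33470, 1.98 higher), and these calls held with each library left out in turn. BaraA1 also fell by 1.61 in ND-75KDweak against control (adjusted p = 0.0296, edgeR), and this call was lost without control replicate 2 or any 1 of the 4 ND-75KDweak libraries (adjusted p up to 0.0920). Cell type markers moved in the same comparisons. Of 5 muscle markers, 2 were higher in ND-75KDstrong than in ND-75KDweak and 1 was lower in ND-75KDweak than in control. Of 11 fat body markers, 6 were higher and 2 lower in ND-75KDweak than in control, where 2.56% of all features were higher. The part of the markers in the levels of the effectors was not tested, nor was the part of pathways other than Toll.

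At the output of melanization, 2 of the 3 prophenoloxidase genes, PPO1 and PPO2, rose in ND-75KDweak. By edgeR, 2.56% of all features were higher there than in control, and 3.09% were lower in ND-75KDstrong than in ND-75KDweak. PPO3 was at 1.48 CPM in control and 0.992 CPM in ND-75KDweak (log2 -0.55, adjusted p = 0.409, edgeR). PPO1 was at 37.7, 42.1, 33.5 and 35.2 CPM in control, at 101, 59.7, 113 and 99.5 CPM in ND-75KDweak and at 56.9, 49.1, 55.0 and 61.7 CPM in ND-75KDstrong. Every ND-75KDweak library was above every control library, and ND-75KDweak replicate 2 fell within the range of ND-75KDstrong. PPO1 was 1.35 higher on the log2 scale in ND-75KDweak than in control (SE 0.19) and fell by 0.76 from ND-75KDweak to ND-75KDstrong, both past the edgeR test. PPO2 was 1.02 higher in ND-75KDweak than in control (SE 0.21) and fell by 1.10 in ND-75KDstrong against ND-75KDweak. The laccase-type oxidase gene stw moved the other way, falling by 0.82 in ND-75KDweak and standing 1.34 higher in ND-75KDstrong than in ND-75KDweak. With 1 library left out, edgeR lost the call of PPO1 between the knockdowns without ND-75KDweak replicate 1, 3 or 4 or ND-75KDstrong replicate 2 (adjusted p up to 0.0624). It lost that of PPO2 against control without ND-75KDweak replicate 1 or 4 (up to 0.0527), and that of stw against control without control replicate 1, 2 or 4 or ND-75KDweak replicate 1, 3 or 4 (up to 0.122). None of the 9 melanization genes passed between ND-75KDstrong and control by edgeR, where 2.37% of all features did. In that comparison 3 of the 9 had an unadjusted p under 0.05, and DESeq2 called PPO1 higher. Summed fat body markers were also higher in ND-75KDweak (49925 to 71990 CPM) than in control (35224 to 41409 CPM), with 6 of 11 higher and 2 lower, where 3.98% of all features were lower. Summed hemocyte markers overlapped between control (353 to 543 CPM) and ND-75KDweak (486 to 599 CPM). In ND-75KDstrong (323 to 396 CPM) they lay below every ND-75KDweak library. The part of either set of markers in the levels of these genes was not tested.

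**Figure D5:**
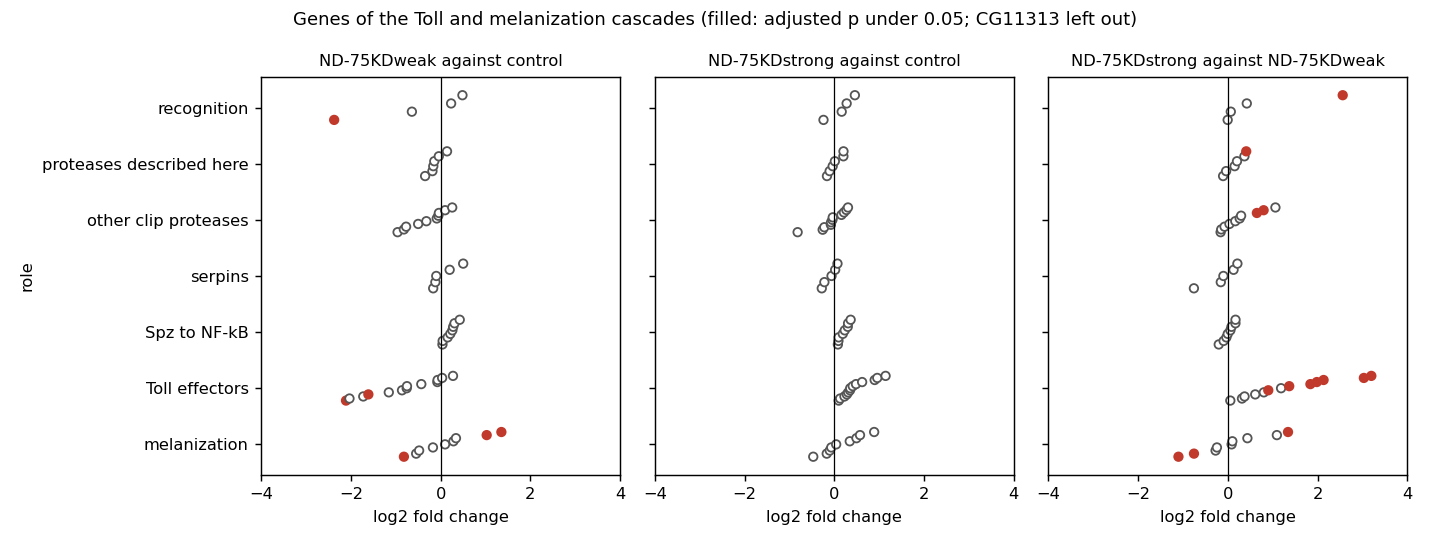
Log2 fold changes (horizontal axes) of the tested genes of the Toll and melanization cascades, grouped by role from recognition to output, in the 3 comparisons; CG11313 is left out and filled points had an adjusted p under 0.05 by edgeR. Calls lie at the recognition gene PGRP-SD, the Toll effectors and the melanization enzymes, with 1 protease of the 6 described here and 2 other clip proteases, and 0 calls in ND-75KDstrong against control.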

How the data were processed

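Raw counts per feature were deposited by the authors, who trimmed reads with fastp, aligned them with HISAT2 and counted with featureCounts per the submitters' processing notes. For these tools the versions, settings and build are not named in the sources used here, and the library kit does not mark strand. The FPKM values were computed by the authors from these counts and deposited beside them. The tables also hold 24 columns of normalized counts and the authors' own DESeq2 fold changes and p-values, and none of these was used. Gene positions are those of the tables and equal the Ensembl BDGP6 annotation for 14761 of 14776 genes. A library count that no table gave was set to 0 (300 features).

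Each comparison was fitted on its 8 libraries with edgeR 4.0.16 in R 4.3.3 (filterByExpr with a minimum count of 10 and total of 15, TMM, quasi-likelihood test, Benjamini-Hochberg over all features tested, adjusted p under 0.05). DESeq2 1.42.0, limma 3.58.1, Python 3.11.15, numpy 2.4.6, pandas 2.3.3, scipy 1.17.1 and matplotlib 3.10.9 were also used. CPM use TMM factors over 12 libraries, and log2 CPM a prior count of 2. Intervals for ratios of summed counts are exact 95% intervals. The tests were checked on simulated counts.

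Named genes are the members, ND-75, up to 4 called genes of each list per direction, the 5 genes most like CG11313 and 2 for each other member, and 4 neighbours on each side. The members and lists were chosen with earlier results of these data known. The counts of trypsin-domain genes, which come from the deposited annotation, and the genes named from them were chosen after their values were seen. The alternatives were RLE scaling, DESeq2, no filter, protein-coding genes alone, all 12 libraries in 1 fit, a replicate block and leaving out libraries.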

Additional observations from a re-analysis of the deposited data

Results flagged for a closer look

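In groups of 4 libraries, a library was singled out where its gap to the nearest of the others took up most of the group's range. Chance singles out about 1 in 20 groups, and 13 of the 132 groups tested were singled out, over the members and the other genes of the cascades. CG11313 stood out in ND-75KDstrong replicate 4 (97.9 CPM, others 38.7 to 47.8), and psh in ND-75KDweak replicate 2 (44.6 CPM, others 66.8 to 68.9). Control replicate 3 was singled out for 6 genes. Spirit was at 60.4 CPM there (others 19.9 to 21.2), CG9733 at 76.1 (11.8 to 21.5), CG3505 at 160 (65.3 to 76.2) and PGRP-SD at 123 (50.8 to 62.1). In the same library yellow-f was at 13.4 CPM (8.55 to 9.30) and scaf was low at 82.0 (137 to 148). ND-75KDstrong replicate 4 was singled out for scaf, low at 117 CPM (157 to 159), for tub at 43.4 (36.1 to 36.9) and for yellow-f at 15.1 (7.64 to 8.39). In ND-75KDweak, nec was low in replicate 1 at 362 CPM (425 to 438) and Spn27A high in replicate 2 at 198 CPM (138 to 142).

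The test of the difference between the knockdowns passed for grass, which was 0.41 higher on the log2 scale in ND-75KDstrong than in ND-75KDweak (adjusted p = 0.0337, edgeR, higher in 4 of 4 libraries than every ND-75KDweak library). Over all tested features, 11.6% were higher without overlap in this way.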

How the results depend on the processing

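With DESeq2, 501 features were called higher and 625 lower in ND-75KDweak against control, 373 higher and 135 lower in ND-75KDstrong against control, and 1075 higher and 595 lower in ND-75KDstrong against ND-75KDweak. With edgeR the counts were 267 and 414, 187 and 62, and 870 higher and 329 lower between the knockdowns. With all 12 libraries in 1 fit, 100 were lower in ND-75KDstrong against control. Leaving out 1 library gave 139 to 363 higher and 202 to 551 lower in ND-75KDweak, 139 to 235 and 36 to 79 in ND-75KDstrong, and 597 to 1037 and 189 to 651 between the knockdowns. Leaving out 2 libraries that stood apart, an alternative chosen after seeing the data, gave 628 and 906, 407 and 125, and 1394 and 932.

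Of the 6 tested proteases, 0 were called against control under every alternative run. Between the knockdowns 1 was called higher, with 0 to 1 when 1 library was left out and 0 with all 12 libraries in 1 fit. The adjusted p of grass there ranged from 0.0131 to 0.134 over the alternatives. Same-numbered libraries showed no clear likeness, as their deviations correlated at -0.45 to 0.14. The labels do not say whether libraries were prepared together by number, and these values cannot settle it. With the replicate number as a block, 114 features were higher and 28 lower in ND-75KDstrong against control, 0 proteases were called between the knockdowns, and grass had a log2 fold change of 0.41 (adjusted p = 0.0675, edgeR).

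Several fold changes that passed no test changed sign. Over the fits that left out 1 library, or the 2 libraries that stood apart, log2 values in ND-75KDweak against control were -0.27 to 0.15 for Hayan, -0.13 to 0.16 for modSP and -0.25 to 0.097 for psh. In ND-75KDstrong against control they were -0.43 to 0.077 for SPE, -0.068 to 0.18 for Sp7, -0.17 to 0.0079 for modSP and -0.14 to 0.12 for psh. Between the knockdowns they were -0.11 to 0.33 for SPE, -0.19 to 0.046 for modSP and -0.092 to 0.23 for psh. The fitted log2 fold change of CG11313 against control, 9.77, ranged from 9.27 to 10.4 with 1 library left out and was 9.01 with 2 left out, and it depends on the prior count. By CPM per kilobase in place of FPKM, CG11313 kept place 4 in ND-75KDstrong, and psh and Sp7, which did not overlap there in FPKM, overlapped. The cause of these shifts was not tested. The counts of 0 to 4 limit what can be said of CG11313 in control and ND-75KDweak, which were not compared by a test.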
